A study of Mus musculus with 36 samples.

Results

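The 7 genes Adamts2, Arhgef3, Fam219a, Mex3d, Pim1, Alg2 and AA474408 were chosen by their unadjusted p-values, which were among the lowest of all nuclear genes when cauda spermatozoa of mice fed on a high-fat diet (HFD) were compared with those of mice fed on a low-fat diet (LFD). All 7 were found in the sperm table and passed its filter on low counts, among 8625 nuclear genes tested and 54838 genes listed. Since the sperm comparison chose them, their sperm values are given as a description with no test. Their levels in morulae sired after the same diets, in round spermatids and in 3 somatic tissues played no part in the choice.
C57BL/6 wildtype males (C57BL/6N in the study's methods), 6 weeks old, received an HFD (60 kcal% fat) or an LFD (10 kcal% fat) for 2 weeks, and spermatozoa were collected by swim-up from the cauda, the last part of the epididymis, with 3 libraries per diet. Morulae, embryos before the blastocyst stage, were made by in vitro fertilization with spermatozoa of such males and picked after 72 h, again with 3 libraries per paternal diet. Tables of round spermatids, liver, eWAT (epididymal white fat) and gastrocnemius (calf muscle) hold 6 libraries each. The column names of these 4 tables do not give the diet or the tolerance group, so the libraries are described by tissue only. The somatic tissues, labelled with the treatment HFD, came, per the study, from chow-fed offspring of HFD-fed fathers. Nothing in the sources used here states how many males or embryos entered a sperm or morula library, so p-values measure only the spread between libraries, which may be technical.

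Spermatozoa are nearly silent in nuclear transcription, and their RNA is mainly what remains of spermatogenesis together with what is taken up in the epididymis. The 5 of the 7 genes whose role is known act in different pathways. Pim1 is a serine/threonine kinase that JAK-STAT signalling induces in blood cells and other tissues, and Arhgef3 is a guanine nucleotide exchange factor that activates small GTPases. Mex3d is an RNA-binding protein with KH domains and a RING finger. Adamts2 is the secreted protease that removes the amino-terminal propeptide of fibrillar procollagens, and Alg2 is the mannosyltransferase that adds early mannose residues to the lipid-linked oligosaccharide of N-glycosylation. No role is given here for Fam219a, and GENCODE vM21 lists AA474408 as a single-exon gene of the class TEC, whose coding status is unsettled.

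In the GRCm38 coordinates of the count tables, Adamts2 (ENSMUSG00000036545) lies at chr11:50602084-50807573 on the plus strand and Arhgef3 (ENSMUSG00000021895) at chr14:27114899-27403911 on the plus strand. Pim1 (ENSMUSG00000024014) spans chr17:29490753-29496112 on the plus strand, and Mex3d (ENSMUSG00000048696) spans chr10:80380355-80387659 on the minus strand. Fam219a (ENSMUSG00000028439) at chr4:41517691-41569538 and Alg2 (ENSMUSG00000039740) at chr4:47465067-47474333 are both on the minus strand. AA474408 (ENSMUSG00000073867) occupies chr7:110057987-110061325 on the minus strand. Counts were taken over exons. The exonic length was 9336 bases for Adamts2, 4527 for Arhgef3 and 3266 to 3724 for the other 5 genes, beside a median of 4934 over the tested nuclear genes. The GC content of the longest transcript ran from 43.6% in AA474408 to 62.1% in Mex3d. Mex3d lay at the 99.2nd percentile of the tested genes for GC, Fam219a at the 92.7th, Pim1 at the 87.5th and Adamts2 at the 80.2nd. Arhgef3 and Alg2 lay near the middle at the 49.9th and 48.3rd, and AA474408 lay low at the 21.95th.
Among the 2155 tested nuclear genes with the highest GC, from 53.2 to 73.7%, the median log2 fold change in sperm was 0.15, and among the 2156 with the lowest, from 30.6 to 44.1%, it was -0.25. The part of GC content in the values of the 7 genes was not tested.

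RefSeq promoter windows on GRCm38.p6 were at hand for 4 of the 7 genes. Those of the 3 with a window at the 5′ end of the annotated gene are shown because they lie directly upstream of its start. Each runs 5′ to 3′ towards the start site and lies outside annotated exons. The letters GGGCGG or their reverse complement CCGCCC, the core of a GC box, are in capitals. For Fam219a the far end of the window was cut at 41569775, where the gene Dnaic1 starts on the opposite strand. The stretches are chr11:50601835-50602083 for Adamts2, chr4:41569539-41569774 on the minus strand for Fam219a and chr17:29490535-29490752 for Pim1.
Adamts2: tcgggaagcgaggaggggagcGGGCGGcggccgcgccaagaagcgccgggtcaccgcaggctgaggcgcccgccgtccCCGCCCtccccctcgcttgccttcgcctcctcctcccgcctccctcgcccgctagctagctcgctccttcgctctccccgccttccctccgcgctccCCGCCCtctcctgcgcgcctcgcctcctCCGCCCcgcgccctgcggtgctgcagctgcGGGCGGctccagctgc
Fam219a: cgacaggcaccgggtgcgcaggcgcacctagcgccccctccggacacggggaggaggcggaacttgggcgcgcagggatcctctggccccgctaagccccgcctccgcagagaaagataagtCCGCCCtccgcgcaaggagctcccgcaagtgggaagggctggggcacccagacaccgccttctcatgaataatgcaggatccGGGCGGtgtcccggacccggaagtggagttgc
Pim1: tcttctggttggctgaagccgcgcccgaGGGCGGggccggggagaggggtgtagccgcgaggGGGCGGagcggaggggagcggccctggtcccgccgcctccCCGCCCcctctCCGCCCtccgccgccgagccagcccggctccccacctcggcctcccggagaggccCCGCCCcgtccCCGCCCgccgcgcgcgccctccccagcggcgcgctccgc
Over the full 250 bases before the RefSeq start, GGGCGG on either strand occurred 5 times for Adamts2, 2 times for Fam219a and 7 times for Pim1, and 32.8% of 32841 windows of that length held it. These windows also held 34, 22 and 36 CpG dinucleotides, against a median of 6 over all windows. Arhgef3 has 4 windows, of which 1 held GGGCGG, 4 times. TATAAA (12.4% of all windows), TGACGTCA (1.55%) and TTCCNGGAA (0.914%) were found in none of the 8 windows of the 4 genes, CCAAT (33.9%) was found in 1 window of Arhgef3, and CACGTG (6.02%) in the second, internal window of Pim1. Matches of letters are a description and not binding sites.

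In sperm the total counts per library were 2.56, 2.91 and 3.05 M on LFD and 2.99, 3.68 and 4.06 M on HFD, and a library is named below by this total. Between 43.5 and 64.7% of the counts fell on mtDNA-encoded genes on LFD and between 78.1 and 84.3% on HFD, so levels are given as CPM of nuclear counts, here called nuclear CPM. All 10 markers of sperm and late spermatids had counts, and their sum was 8330 to 30000 nuclear CPM on LFD and 27400 to 55100 on HFD. The LFD library of 2.56 M had the highest level of epididymal epithelium markers (45200 nuclear CPM, against 8030 to 25200 elsewhere), and the HFD library of 4.06 M stood apart with stroma and smooth muscle markers at 2890 nuclear CPM, against 174 to 460 in the other 5. Erythroid markers were at 57.4, 585 and 312 nuclear CPM on LFD and 1610, 599 and 856 on HFD. In bulk samples, fewer cells of a type and less RNA per cell cannot be told apart. No 2 libraries of a group were as alike as sampling noise alone allows.

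**Figure D1:**
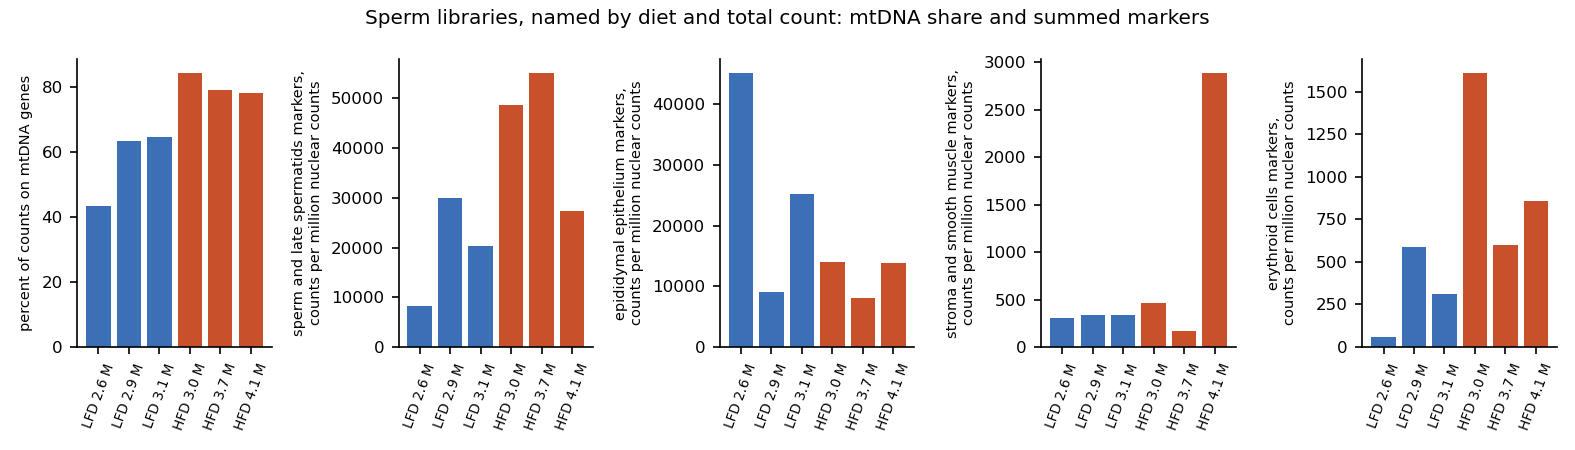
Bars give, for each of the 6 sperm libraries named by diet and total count in M, the percent of counts on mtDNA-encoded genes and the summed level of 4 marker lists in CPM of nuclear counts; LFD is blue and HFD is orange. The mtDNA share is 78.1 to 84.3% on HFD, and the HFD library of 4.06 M counts alone reaches 2890 for stroma and smooth muscle.

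The edgeR quasi-likelihood test with TMM scaling, which sets library sizes so that most genes do not differ, gave the 7 genes unadjusted p-values of 1.37e-04 (Adamts2) to 6.49e-04 (Pim1), the values that chose them, and an adjusted p of 0.231 for every one. They held nuclear ranks 1, 3, 6, 8, 9, 11 and 13. The last inside, Pim1, had 6.49e-04, and the next gene in the ranking was Gm4076 at 6.91e-04 with a log2 fold change of 2.45, then Cep295 at 6.93e-04 (2.07) and Zmynd15 at 7.11e-04 (3.16). The ranks between the members were held by the predicted genes Gm10222, Gm10925, Gm20594, Gm29208 and Gm13340 and by Akap3, an anchoring protein of the sperm tail, with log2 fold changes of 2.19 to 4.15, all higher on HFD. Over all 8643 genes tested edgeR called 0 (0%), limma-voom also called 0, and DESeq2 called 295 (4.45% of the 6628 with an adjusted p), the 7 members among them. At an unadjusted p under 0.05 edgeR had 8.38% of genes higher and 4.63% lower on HFD, 1124 in all. Values of HFD and LFD libraries did not overlap for 8.21% of genes on the higher side and 12.2% on the lower side, and the members were 6 higher and 1 lower, a count that the choice itself fixes.

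**Figure D2:**
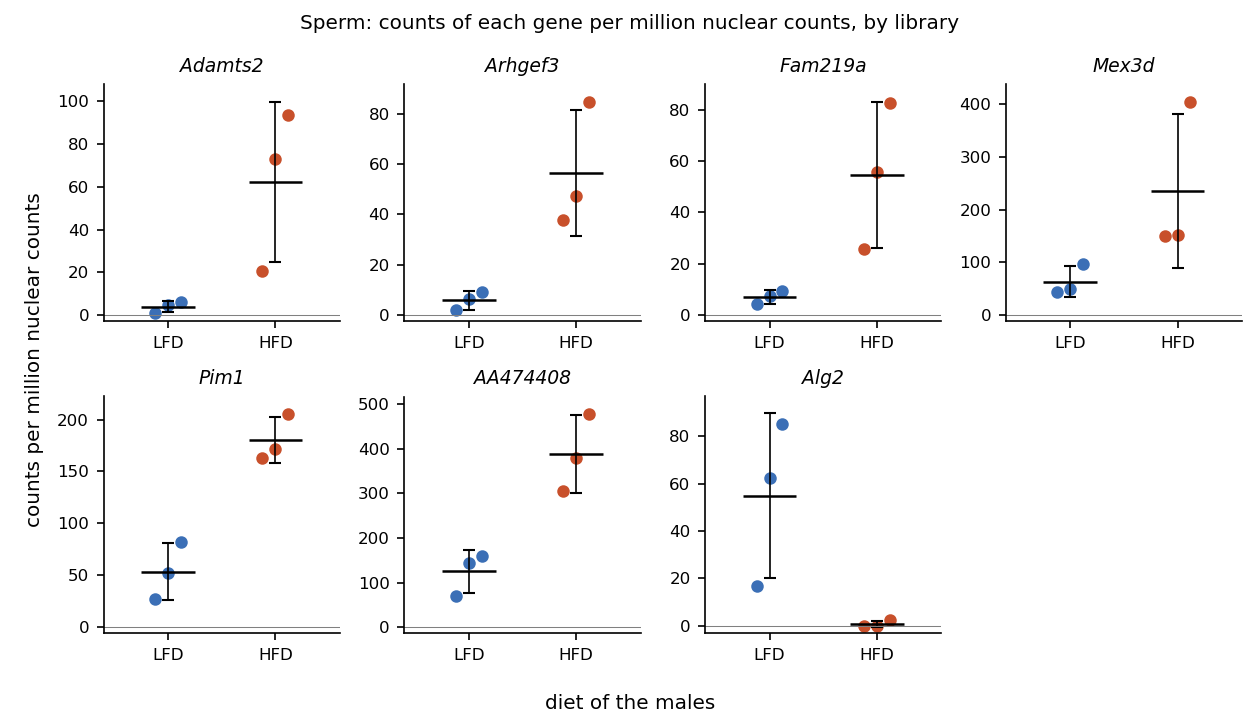
Each panel plots 1 of the 7 genes in sperm as CPM of nuclear counts, with 1 point per library, LFD in blue and HFD in orange, and the mean with its SD as a black line and bar (n = 3 per diet). In 6 panels every HFD point lies above every LFD point, and for Alg2 every HFD point lies below.

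Pim1 had 39, 87 and 56 counts in the LFD libraries of 2.56, 2.91 and 3.05 M and 97, 126 and 153 in the HFD libraries of 2.99, 3.68 and 4.06 M. As nuclear CPM these were 26.9, 81.6 and 51.9 on LFD and 206, 163 and 172 on HFD. The HFD values lay close together (180 ± 22.5, SD, n = 3). The LFD values had an SD of like size around a lower mean (53.5 ± 27.3, SD, n = 3), so relative to the mean they were more spread. The lowest HFD value was above the highest LFD value. The log2 fold change was 2.37 (standard error 0.54) with TMM scaling and 0.72 with library totals.
Arhgef3 had 13, 2 and 7 counts on LFD and 40, 29 and 42 on HFD in the same order of libraries. Its nuclear CPM was 8.98, 1.87 and 6.49 on LFD and 84.9, 37.6 and 47.2 on HFD, with the highest value in the HFD library of 2.99 M. Its log2 fold change was 3.83 (standard error 0.79) with TMM and 1.96 with library totals, and it rests on 22 LFD counts.
Mex3d had more counts, 219 over the LFD libraries and 441 over the HFD libraries. The nuclear CPM was 42.8, 96.6 and 50.1 on LFD and 405, 152 and 149 on HFD, so that 1 HFD library stood well above the other 2, which differed little from each other. On the log2 scale the change was 2.45 (standard error 0.56) with TMM and 0.73 with library totals, and as CPM of the library total the diets overlapped, at 17.7 to 35.4 on LFD and 31.8 to 63.8 on HFD.

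Adamts2 had 9, 5 and 1 counts on LFD and 44, 16 and 65 on HFD. In nuclear CPM these were 6.22, 4.69 and 0.927 on LFD and 93.4, 20.7 and 73.1 on HFD. The log2 fold change, 4.42 (standard error 0.85) with TMM and 2.65 with library totals, was the largest increase of the 7. With TMM it was 4.32 when the HFD library of 4.06 M was left out. In the HFD libraries of 2.99, 3.68 and 4.06 M, the stroma and smooth muscle markers were at 460, 174 and 2890 nuclear CPM. The part of stromal cells in the values of Adamts2 was not tested.
Alg2 was the only one of the 7 that was lower on HFD. It had 90, 18 and 92 counts on LFD and 0, 0 and 2 on HFD, and its nuclear CPM was 62.2, 16.9 and 85.3 on LFD and 0, 0 and 2.25 on HFD. A count of 0 allows up to 3 counts, which is 1.00 and 0.815 CPM of the library total in these 2 HFD libraries. From the summed counts, 2 against 200, the TMM-scaled ratio of HFD to LFD was 0.0260 (95% exact counting interval 0.00313 to 0.0951), and with library totals it was 0.00794 (0.000955 to 0.0291). These intervals cover counting error only. The fitted log2 fold change of -5.20 (standard error 1.19) depends on the prior count and is no bound. The pattern was shared: 19 nuclear genes, Alg2 included, had at most 2 counts in every HFD library and at least 18 in every LFD library, out of 5886 with at least 18 in every LFD library. The mirror pattern was held by 0 genes out of 2530 with at least 18 counts in every HFD library. These are raw counts, and the nuclear counts per library were 471297 to 889679 on HFD and 1066801 to 1447186 on LFD. Low counts are thus reached more easily on HFD, and the part of this depth was not tested.

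Fam219a had 6, 8 and 10 counts on LFD and 39, 43 and 23 on HFD. The nuclear CPM was 4.15, 7.50 and 9.27 on LFD and 82.8, 55.7 and 25.9 on HFD, without overlap. This gave a log2 fold change of 3.61 (standard error 0.79) with TMM and 1.84 with library totals.
AA474408 had the most counts of the 7, with 102, 171 and 155 on LFD and 226, 293 and 272 on HFD. Its nuclear CPM was 70.5, 160 and 144 on LFD and 480, 380 and 306 on HFD. On HFD it was higher by a log2 fold change of 2.28 (standard error 0.51) with TMM and 0.57 with library totals, the smallest of the 6 increases.
The scaling moved all of these values together. The TMM factors ran from 0.440 to 0.710 for HFD libraries and from 1.52 to 2.62 for LFD libraries. For all tested genes together, the median change was -0.07 on the log2 scale under TMM and -1.82 under library totals. Read against that median, the 6 genes were higher by 2.35 to 4.49 with TMM and by 2.39 to 4.47 with library totals, and Alg2 stood at -5.13 and -4.95. A change of scaling moves a gene and the median together, so this likeness follows from the calculation and gives no support.

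**Figure D3:**
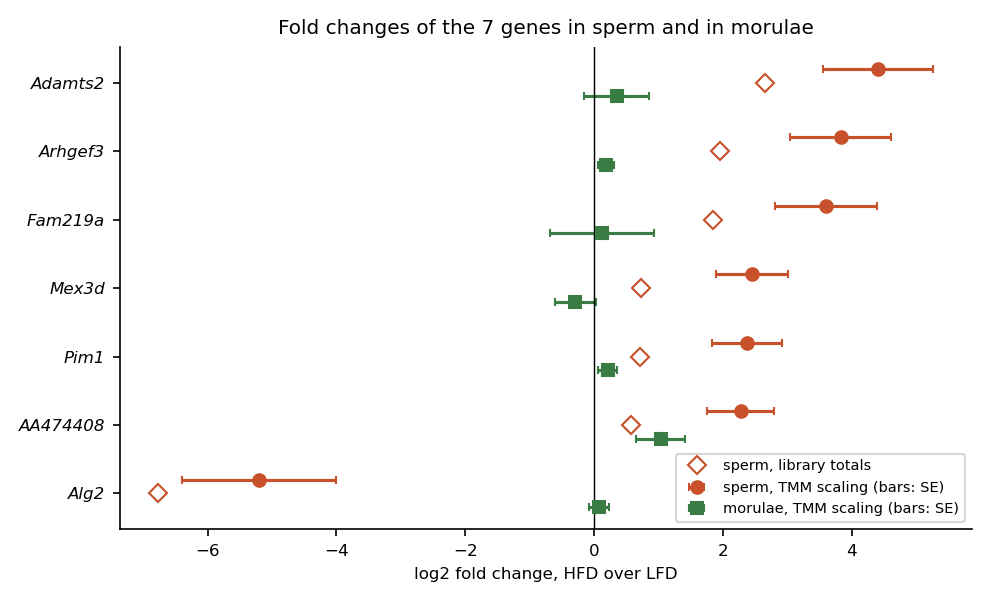
Points give the log2 fold change of HFD over LFD for each gene, in sperm with TMM scaling (filled circles, bars are standard errors), in sperm with library totals (open diamonds) and in morulae with TMM scaling (squares, bars are standard errors). In sperm the 6 higher genes lie at 2.28 to 4.42 with TMM and at 0.57 to 2.65 with library totals, and in morulae 6 of the 7 lie between -0.29 and 0.35 and AA474408 at 1.04.

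Levels were compared between the genes per length, within each diet. On LFD the median was 43.05 nuclear CPM per kb for AA474408, 18.03 for Alg2, 15.4 for Pim1 and 15.3 for Mex3d, and the ranges of these 4 genes overlapped, while Fam219a (2.01), Arhgef3 (1.43) and Adamts2 (0.502) were lower. On HFD the median was 113.7 for AA474408, at the 99.2nd percentile of the 26876 nuclear genes with a count in sperm. It was 51.1 for Pim1 and 46.4 for Mex3d, whose ranges overlapped. The range of Mex3d (45.8 to 124.1) also overlapped that of AA474408 (91.6 to 143.6). Fam219a (14.96), Arhgef3 (10.4) and Adamts2 (7.83) followed on HFD with overlapping ranges, and Alg2 was at 0 to 0.652.
The profile over the 6 sperm libraries was compared with that of every other tested nuclear gene by Pearson's r of log2 CPM. These are 6 libraries that share depth and mtDNA share with diet, so r is a description only. The genes most like Pim1 were Wdr64 (0.997) and Tsacc (0.994), and the same pair was most like AA474408 (0.995 both). For Mex3d they were Cfap65 (0.997) and Sry (0.996), for Fam219a Fbxo34 (0.997), and for Arhgef3 Gm10222 (0.986) and Furin (0.977). For Adamts2 they were Kmt5c (0.994) and Cc2d1b (0.974), and for Alg2 9430034N14Rik (0.994) and Cog4 (0.988), a subunit of a Golgi tethering complex. Between 18 genes (Adamts2) and 164 genes (AA474408) of 8624 had an r above 0.95 with a member. Among the 6 genes higher on HFD r was 0.819 (Adamts2 with AA474408) to 0.989 (Pim1 with AA474408). All 6 were chosen for a difference between the diets in these libraries, and that choice itself makes r among them high.

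Morulae gave a comparison that the choice of the genes had not used. Every one of the 7 genes had counts and was tested, and edgeR's test called none of them at an adjusted p under 0.05, as it called 0% of all 13447 genes. At an unadjusted p under 0.05, 3.55% of genes were higher and 2.83% lower after paternal HFD, 858 in all, limma-voom called 0 genes, and DESeq2 called 18 (0.26% of the 6929 with an adjusted p), with no member among them and no adjusted p given for 4 members. In 1 of the 7 genes, AA474408, the values of the diets did not overlap, against 5.94% of all tested genes on the higher side and 6.18% on the lower side. The median log2 fold change of the 7 was 0.18, beside 0.01 for all genes.
The levels of AA474408 were 2.88, 3.86 and 7.76 nuclear CPM after paternal LFD and 9.06, 10.4 and 10.9 after paternal HFD, from 27, 33, 68, 78, 90 and 101 counts in that order. All 3 HFD libraries were above the LFD ones, of which 1 lay nearer to them than to its own group. The log2 fold change was 1.04 (standard error 0.38), with an adjusted p = 0.696 and an edgeR unadjusted p = 0.0152, and it did not pass the threshold.
The values of the other genes overlapped between the diets. Arhgef3 was at 68.1, 69.5 and 80.6 nuclear CPM on LFD and 79.9, 85.0 and 88.6 on HFD, a difference of 0.18 on the log2 scale (SE 0.12, edgeR adjusted p = 0.846). Pim1 was at 41.9, 47.9 and 56.7 on LFD and 52.9, 58.2 and 62.4 on HFD, a difference of 0.21 on the log2 scale (SE 0.15, edgeR adjusted p = 0.855). Both were measured with 393 to 763 counts per library. The mean nuclear CPM of Arhgef3 was 72.7 ± 6.81 on LFD and 84.5 ± 4.39 on HFD (SD, n = 3). That of Pim1 was 48.9 ± 7.44 on LFD and 57.8 ± 4.74 on HFD (SD, n = 3).
Alg2, nearly absent from HFD sperm, was at 38.6, 43.7 and 48.6 nuclear CPM in LFD morulae and 41.0, 47.6 and 53.0 in HFD morulae, a difference of 0.08 on the log2 scale (SE 0.16, edgeR adjusted p = 0.960). Mex3d was at 6.73, 8.64 and 12.6 on LFD and 7.13, 7.67 and 8.71 on HFD (-0.29 on the log2 scale, SE 0.32, edgeR adjusted p = 0.924). Adamts2 and Fam219a had few counts. Adamts2 was at 2.03, 3.39 and 4.34 on LFD and 2.81, 2.90 and 7.08 on HFD, a difference of 0.35 on the log2 scale (SE 0.51, edgeR adjusted p = 0.943) but of -0.21 without the HFD library of 11606215 counts. Fam219a had 3 to 27 counts per library, and its difference was 0.12 on the log2 scale (SE 0.81, edgeR adjusted p = 0.993), and it came to -0.74 when the HFD library of 11606215 counts was left out and to -0.28 when the LFD library of 12133872 counts was. These 2 genes had the largest standard errors of the 7 in morulae.

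**Figure D4:**
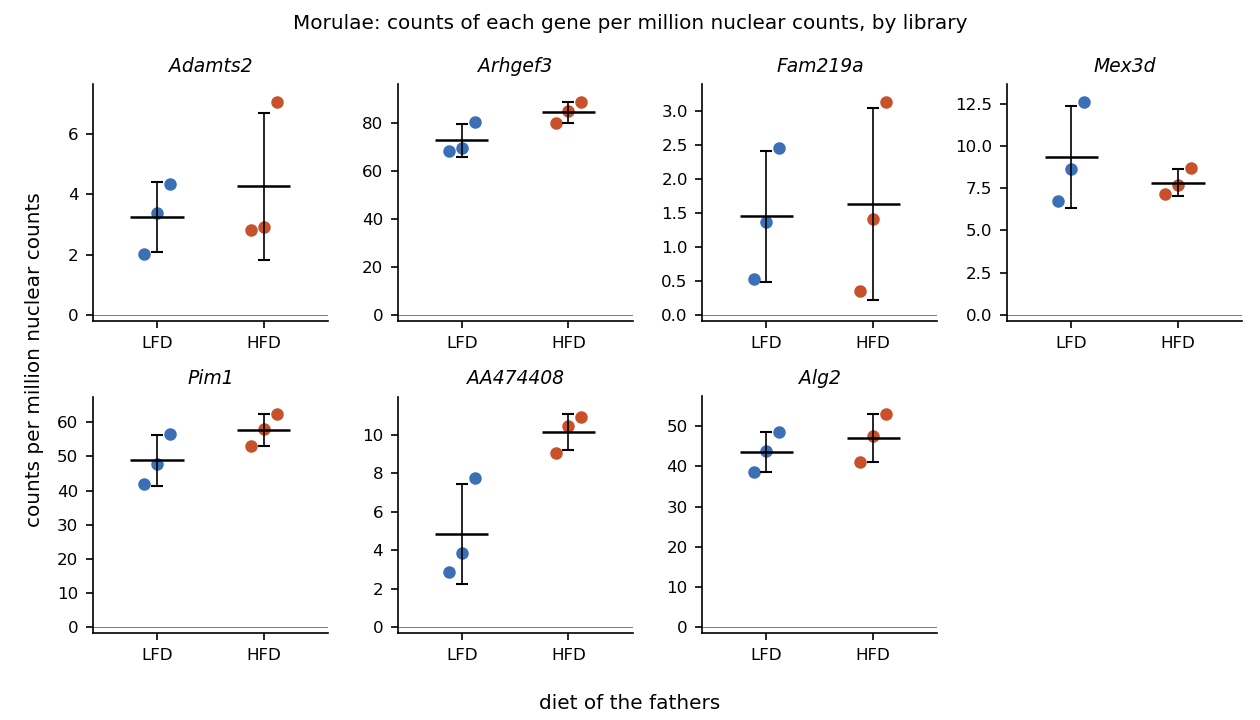
Each panel plots 1 of the 7 genes in morulae as CPM of nuclear counts, with 1 point per library, LFD fathers in blue and HFD fathers in orange, and the mean with its SD in black (n = 3 per diet). The diets overlap in 6 panels, and in that of AA474408 the HFD points lie at 9.06 to 10.9 and the LFD points at 2.88 to 7.76.

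The tables of spermatids and tissues were checked against markers: round spermatid markers summed to 2030 to 2260 nuclear CPM in the round spermatid table, liver markers to 71500 to 96400 in liver, adipocyte markers to 40100 to 58500 in eWAT and skeletal muscle markers to 105000 to 165000 in gastrocnemius. Sperm, round spermatids and morulae share a library kit and are set side by side, but sperm libraries were read from 1 end and the others from both, and the study names depletion of ribosomal RNA for round spermatids. What these differences add to the levels was not tested. In the round spermatid table the exonic length was 3585 bases for Arhgef3 and 2638 for Pim1, shorter than the 4527 and 3362 of the sperm table, so the levels of these 2 genes are not over the same exons. The somatic libraries were made with a kit that reads 3′ ends and are compared only among themselves.
Mex3d was the gene with the highest level in round spermatids, at 492 to 571 nuclear CPM with a median of 536, at the 99.25th percentile of genes with a count per length. Every round spermatid library was above every sperm library, where HFD reached 405, and morulae were lowest at 6.73 to 12.6. Fam219a was also high in round spermatids (58.7 to 65.5), a range that HFD sperm (25.9 to 82.8) overlapped and that LFD sperm (4.15 to 9.27) did not, and it was lowest in morulae (0.349 to 3.13).
Pim1 was at 49.4 to 55.6 nuclear CPM in round spermatids, at 41.9 to 62.4 in morulae and at 26.9 to 81.6 in LFD sperm. These 3 ranges overlapped, and HFD sperm, at 163 to 206, lay above them all. Arhgef3 was highest in morulae (68.1 to 88.6) with HFD sperm overlapping (37.6 to 84.9), then in round spermatids (19.7 to 24.7) and lowest in LFD sperm (1.87 to 8.98).
Alg2 in LFD sperm (16.9 to 85.3) overlapped morulae (38.6 to 53.0), while round spermatids had 3.74 to 6.08 and HFD sperm 0 to 2.25. AA474408 was much higher in sperm of both diets, 70.5 to 160 on LFD and 306 to 480 on HFD, than in round spermatids (4.12 to 5.79) and morulae (2.88 to 10.9), whose ranges overlapped. Adamts2 was at 0.820 to 1.61 in round spermatids and 2.03 to 7.08 in morulae, LFD sperm overlapped morulae at 0.927 to 6.22, and HFD sperm lay above at 20.7 to 93.4.

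**Figure D5:**
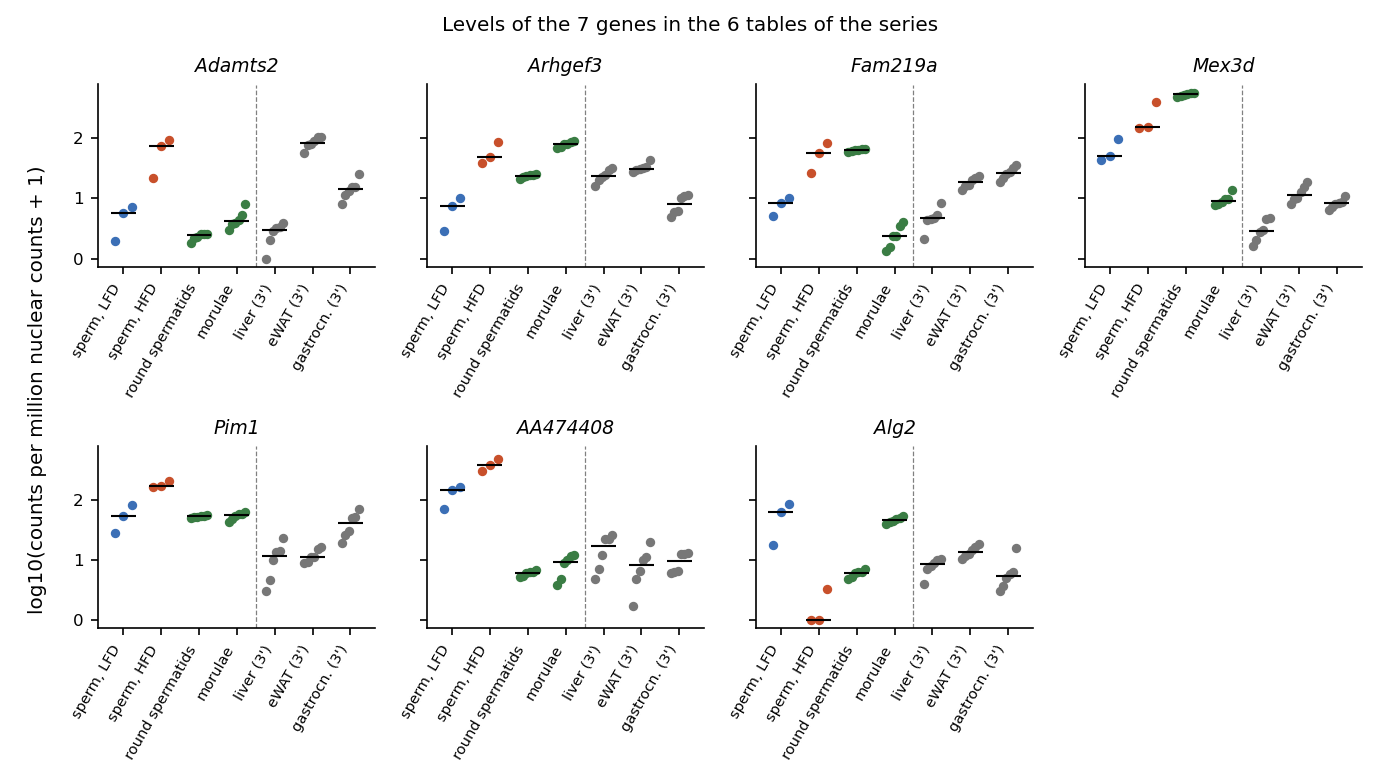
Each panel plots 1 of the 7 genes as log10(CPM of nuclear counts + 1), with 1 point per library and a line at the median, in sperm by diet, round spermatids and morulae on the left of the dashed line and in liver, eWAT and gastrocnemius, made with the 3′ kit, on the right. Mex3d is highest in round spermatids (median 536 nuclear CPM), AA474408 in HFD sperm (median 380) and Adamts2, among the somatic tissues, in eWAT (median 83.3).

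Among the somatic tissues, Adamts2 was highest in eWAT, at 55.2 to 105 nuclear CPM (91.98th percentile of genes with a count), then in gastrocnemius at 7.21 to 24.8 and lowest in liver at 0 to 2.88, with no overlap between these ranges. Arhgef3 had medians of 30.4 in eWAT and 23.01 in liver, with overlapping ranges, and 7.14 in gastrocnemius. Pim1 was highest in gastrocnemius (18.03 to 70.6), where the range reached into that of liver (2.01 to 22.4), which overlapped eWAT (7.84 to 15.5). Fam219a was at 17.5 to 34.8 in gastrocnemius and 12.8 to 22.6 in eWAT, which overlapped, and at 1.09 to 7.48 in liver. Mex3d stayed low, with medians of 10.47 in eWAT, 7.37 in gastrocnemius and 1.87 in liver. Alg2 had medians of 12.7, 4.40 and 7.49 in eWAT, gastrocnemius and liver, and AA474408 had 7.25, 8.46 and 16.1 with ranges that overlapped. Several of these values rest on few counts, with Adamts2 at 0 counts in 1 liver library and at 18 over all 6, Mex3d at 1 count in a liver library and AA474408 at 1 count in a gastrocnemius library.

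Partners of 5 genes in their pathways or families were read from lists, with the count of genes at an unadjusted p under 0.05 in edgeR, since no gene passed the adjusted threshold in either comparison. In sperm, 7 of 25 genes of procollagen processing and collagen were tested, 5 were higher on HFD at that level and 0 lower, and the median log2 fold change was 1.62. Those with the smallest p were the collagen chains Col1a2 (1.89, edgeR adjusted p = 0.272) and Col3a1 (1.62, edgeR adjusted p = 0.282) and Lox, which cross-links collagen (3.02, edgeR adjusted p = 0.273). Counts were repeated without the HFD library of 4.06 M, with its high stromal markers, and without the LFD library of 2.56 M, with its low mtDNA share, both chosen after seeing the data. Without the first, 1 collagen gene was higher at that level, and without the second, 4 were. Leaving out a library can also change which genes are tested and the share of all genes at that level. Neither is given here, so such counts, for this list and those below, are a description only.
Of 16 tested genes of PIM kinases and JAK-STAT, 0 were higher and 2 were lower, Jak2 (-1.22, edgeR adjusted p = 0.324) and the cell cycle inhibitor Cdkn1a (-1.20, edgeR adjusted p = 0.366), with a median of -0.40. Without the LFD library of 2.56 M, 0 were lower. Pim3, the relative of Pim1 that was tested in sperm, had a log2 fold change of 1.59 (standard error 1.12).
The genes of lipid-linked oligosaccharide assembly, the pathway of Alg2, were tested in 24 of 33 cases. Alg13, which acts before Alg2, was higher (1.75, edgeR adjusted p = 0.382) and Nus1, needed to make the dolichol carrier, was lower (-1.18, edgeR adjusted p = 0.377), and the median was -0.13. Without the HFD library of 4.06 M, 3 genes of this list were lower, and without the LFD library of 2.56 M, 0 were higher and 0 lower. Fam219b had a log2 fold change of 1.00 (standard error 0.99), and Mex3c, the relative of Mex3d that was tested in sperm, had -0.03 (standard error 0.81).
Among the marker lists tested in sperm, 4 of 10 sperm and late spermatid genes were higher at that level (median log2 fold change 1.29), as were 4 of 5 tested erythroid genes (median 2.19), 1 of 5 stroma and smooth muscle genes (median 2.64), 1 of 5 leukocyte genes (median 1.22), 1 of 6 epididymal genes (median -0.25) and 1 of 3 round spermatid genes (median 1.30). Without the HFD library of 4.06 M, the higher counts were 7 for sperm, 3 for round spermatid and 0 for stroma genes, and without the LFD library of 2.56 M they were 2 for sperm, 2 for erythroid, 2 for leukocyte, 0 for round spermatid and 0 for epididymal genes. The part of other cells in the values of the 7 genes was not tested.
In morulae the lists held few genes at that level. Loxl3 was higher (1.57, edgeR adjusted p = 0.729) among 14 collagen genes. Mex3c was lower (-0.26, edgeR adjusted p = 0.718) among 3 Mex3 relatives, and Mcl1 was lower (-0.28, edgeR adjusted p = 0.688) among 20 PIM and JAK-STAT genes. In the oligosaccharide pathway 0 of 33 genes reached it.

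The genes beside and across the members on the chromosome are described because reads can be shared where genes overlap. AA474408 overlaps the zinc finger gene Zfp143, on the opposite strand, by 109 exonic bases and lies within the span of 1600010M07Rik, on its own strand, without shared exonic bases. Whether the counting used strand is not given in the sources used here, so reads of overlapping genes cannot be assigned with certainty. In sperm, Zfp143 was covered by 2 counts on HFD and 41 on LFD in all, whereas AA474408 had 791 and 428. On its other side Ipo7, a nuclear import receptor, had 144 and 541 counts (log2 fold change -0.43, edgeR unadjusted p = 0.418). In morulae Zfp143 had 2158 counts after paternal HFD and 1751 after LFD (log2 fold change 0.27, edgeR unadjusted p = 0.0556), 1600010M07Rik had 231 and 138 (0.72, edgeR unadjusted p = 0.0681), and Gm45819, 58665 bases away, had 97 and 33 (1.498, edgeR unadjusted p = 0.0329).
Fam219a starts 237 bases from Dnaic1, an axonemal dynein gene on the opposite strand, which had 32 counts on HFD and 11 on LFD in sperm and did not pass the filter, and 1110017D15Rik on its other side had 173 and 131 counts (log2 fold change 1.76, edgeR unadjusted p = 0.109). Alg2 starts 325 bases from Sec61b, a subunit of the ER translocon, which had 21 counts on HFD and 62 on LFD, a log2 fold change of -0.24 (edgeR unadjusted p = 0.786), where Alg2 had 2 and 200. Mbd3, next to Mex3d, had 83 and 138 counts (0.78, edgeR unadjusted p = 0.268). Fam208a, next to Arhgef3, had 124 and 589 counts (-0.86, edgeR unadjusted p = 0.154). Gm49616, which shares 92 exonic bases with Arhgef3 on the same strand, had 0 counts in sperm, and in morulae it had 77 after paternal HFD and 15 after LFD (log2 fold change 2.28, edgeR unadjusted p = 0.0172). The genes annotated within Adamts2 had 0 counts in sperm, and Gm26885, which shares 488 exonic bases with Pim1 on the other strand, had 0 counts on HFD and 3 on LFD.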

How the data were processed

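RNA-seq count tables of sperm, morulae, round spermatids, liver, eWAT and gastrocnemius were used, with 36 columns in all. The authors used BBDuk for trimming, STAR for alignment against GRCm38 and featureCounts for counting, and they deposited raw counts per gene; versions and strand setting are not given in the sources used here. The diet of sperm and morula libraries was read from the letters of the column names. For 3 morula samples a description names the other diet than the title, which was followed. The other 24 columns give only the tissue. Symbols were matched for 54723 of 54838 sperm genes.
Sperm and morulae were fitted separately with edgeR 4.0.16 under R 4.3.3 (filterByExpr, minimum count 10, TMM, quasi-likelihood, two-sided, Benjamini-Hochberg, threshold 0.05). The paper's methods name NOISeq. DESeq2 1.42.0, limma-voom (limma 3.58.1), other scalings, no filter, leaving out each library, and a block by column number were alternatives. The scripts were tested on simulated data. Nuclear CPM leaves out mtDNA-encoded genes. The members and lists were chosen with earlier results of these data known. The genes named besides the members were the 2 most alike per member, the genes ranked between them and the 3 after them, their neighbours and overlapping genes, and up to 3 genes per list with the smallest unadjusted p under 0.05. Relatives of the members and marker lists were named as well. A gene most alike to a member and a gene list are not reported here. Promoter windows are those of RefSeq. Python 3.11.15 and matplotlib 3.10.9 made the figures.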

Additional observations from a re-analysis of the deposited data

Results flagged for a closer look

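For the 4 tables whose columns give only the tissue, Dixon's test at 95% was run on the 6 libraries for each of the 7 genes, 28 sets in all, and 2 were marked because the gap of 1 library to its nearest neighbour was large against the whole range; chance marks about 1 in 20 sets. Arhgef3 in eWAT was at 43.2 nuclear CPM in 1 library, next to 32.4 in the following one and a median of 30.4. Alg2 in gastrocnemius was at 14.9 nuclear CPM in the library with fewest counts (369772), next to 5.41 and a median of 4.40. That value rests on 3 counts of the gene, and the 6 gastrocnemius libraries held 3 to 7.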

How the results depend on the processing

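For sperm, edgeR called 0 genes at an adjusted p under 0.05; the count was 1124 at an unadjusted p under 0.05, 3266 with library totals, 41 without the filter on low counts and 295 with DESeq2. It stayed at 0 with DESeq2 size factors, nuclear genes alone, limma-voom and when any 1 library was left out. Of the 7 members, 2 were called with library totals, where 3266 of the 8643 genes tested were called. Without the filter every gene with a count was tested, 26876 of them nuclear, and 3 members were among the 41 genes called. With DESeq2 all 7 were called, where 4.45% of the genes with an adjusted p were. The sperm comparison chose the members, so these counts are a description only. For morulae, 0 genes were called, against 858 at an unadjusted p under 0.05, 63 without the filter, 18 with DESeq2, and 0 to 2 when 1 library was left out, the 2 without the HFD library of 11776603 counts. The cause of these differences was not tested. In sperm 6 members were higher and Alg2 lower under every alternative run. The same libraries chose the members, so this constant direction follows from the choice and gives no support. Alg2 went to -8.56 without the HFD library of 4062321 counts, the only HFD library with counts of it. In morulae, Fam219a was at -0.028 with limma-voom and between -0.74 and 0.72 when 1 library was left out (-0.28 without the LFD library of 12133872 counts). Alg2 ran from -0.037 to 0.174 (-0.0038 without the LFD library of 11471251 counts), Adamts2 from -0.21 to 0.60 and AA474408 from 0.77 to 1.54. With a block for the numbers in the sperm column names, 2 genes and 0 members were called. Only 2 numbers occur in both diets, with deviations correlated at 0.103 and -0.136, so the numbers were not taken as a pairing, and morula columns share no number.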
